A study of Mus musculus with 3 samples.

Results

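The vacuolar proton pump (V-ATPase) and the carbonic anhydrases were followed as all entries of the deposited gene list whose symbol begins with Atp6v or Atp6ap, or is Car followed by a number and an optional letter. They are 42 of 32594 genes, with 26 pump subunits and accessory proteins and 16 carbonic anhydrases. Members were taken by symbol alone, but the set and its tests were chosen with earlier results of these data known. Tcirg1, the a3 subunit, has another kind of symbol and is used only as a further paralog.

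The V-ATPase moves protons across membranes at the cost of ATP. Its V1 sector, on the cytoplasmic side, holds the ATP-splitting A and B subunits with the stalk and regulatory subunits C to H, and its V0 sector, in the membrane, holds the proteolipid ring and the a, d and e subunits. Several positions are filled by alternative genes, and the B1, a4, C2, G3 and d2 forms are known from acid-secreting cells such as the intercalated cells of the kidney. Carbonic anhydrases turn carbon dioxide and water into bicarbonate and a proton, and so supply such cells with protons. Ionocytes are rare epithelial cells defined by the transcription factor Foxi1, which is known to switch on pump subunit genes in the inner ear, kidney and epididymis of the mouse.

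Whole prostates of C57BL6 mice aged 12 to 15 weeks were measured by 10x droplet single-cell RNA sequencing, as 1 library with the Srd5a2 knockout label and 2 libraries with the Srd5a2 heterozygous label. Srd5a2 is the enzyme that turns testosterone into dihydrotestosterone, and no library has an unaltered Srd5a2 genotype. All tissue was digested for 2 h at 37 °C with dihydrotestosterone and a rock inhibitor in the buffer. The number of animals behind a library is not given, so p-values measure only the spread between these libraries.

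Kept cells numbered 9139 in the knockout library, 4505 in heterozygote 1 and 9662 in heterozygote 2. Each read was tied to its RNA molecule by a unique molecular identifier (UMI), and the median cell held 4386 UMIs in the knockout, 6990 in heterozygote 1 and 5141 in heterozygote 2. Srd5a2 had 1 UMI in knockout fibroblasts, against 25 and 42 UMIs in those of heterozygotes 1 and 2, and 3 UMIs in knockout smooth muscle, against 59 and 54 UMIs. In ionocytes it had no UMI in the knockout library, against 1 UMI and none in the heterozygotes. Of the kept cell barcodes, 7 were shared between the knockout and heterozygote 1, 27 between the knockout and heterozygote 2, and 10 between the heterozygotes. Ionocytes made up 2.34% of knockout cells, against 2.33% and 2.21% of the cells of heterozygotes 1 and 2. The matrix of heterozygote 1 held 5000 barcodes with at least 2466 UMIs each, against minima of 586 in the knockout and 500 in heterozygote 2. Median depths, shares of cells and shares of cells with a UMI are therefore not directly comparable between heterozygote 1 and the other libraries.

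Ionocytes were 1 cluster of 533 cells, with 214 in the knockout library, 105 in heterozygote 1 and 214 in heterozygote 2. It was found without the 42 genes and named on 7 detected markers of 18 listed, among them Foxi1, Stap1, Dmrt2, Tfcp2l1, Kit and Parm1, and none of the 7 is a pump or anhydrase gene. Some other listed markers were absent or nearly so in ionocytes. Cftr and Moxd1 had 1 UMI each, in the knockout, Ascl3 had 1 UMI, in heterozygote 2, and Oxgr1 and Insrr had none. Coch, Hepacam2, Bsnd, P2ry14 and Rcan2 had UMIs in ionocytes of every library. Stap1 was higher in macrophages, at 897, 550 and 627 CPM, than in ionocytes, at 135, 124 and 141 CPM (knockout, heterozygote 1, heterozygote 2). In the same order, Coch had 183, 199 and 315 CPM in fibroblasts, against 10.3, 1.77 and 6.04 in ionocytes. Rcan2 had 41.0, 108 and 88.4 CPM in smooth muscle, against 14.5, 5.89 and 8.67 in ionocytes, and Moxd1 had 33.7, 25.9 and 27.0 CPM in basal cells. Some seminal vesicle genes were abundant in the ionocytes. A list of 10 seminal vesicle secretory genes took 35.8% of their UMIs in the knockout, against 41.7% and 42.1% in heterozygotes 1 and 2, while luminal cells had 2.57%, 0.374% and 1.59% in the same order of libraries. Svs2, Svs5 and Pate4 carried nearly all of this sum, with 174774, 123515 and 48491.6 CPM in knockout ionocytes, whereas Ceacam10 was lower in ionocytes, at 365, 4.72 and 0.788 CPM against 641, 31.2 and 17.5 CPM in luminal cells, and Svs1 and Sva were lower likewise in every library. At a finer clustering the ionocytes fell into a deep subcluster of 282 cells with a median of 25255 UMIs and a shallow one of 250 cells with a median of 4338.5 UMIs, and 1 cell lay in neither. The deep one held 101, 64 and 117 cells and the shallow one 112, 41 and 97 (knockout, heterozygote 1, heterozygote 2). Values over all ionocytes mix the subclusters in proportions that differ between libraries. Seminal vesicle secretory genes took 43.0% of the UMIs of the deep ionocytes in the knockout, against 47.9% and 47.8% in the heterozygotes, and 4.98% of those of the shallow ionocytes in the knockout, against 0.650% and 1.23%. The part of this RNA in the results below was not tested, and values in each subcluster are given beside them.

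The comparison classes were luminal cells (8757, secretory and proximal together), basal cells (3172) and seminal vesicle-like cells (1281, the 1 cluster of that kind with at least 50 cells in every library). Levels are UMIs per 1000000 UMIs of a class in a library (CPM). A UMI counts a molecule and not its length, so levels of different genes are set side by side without a length correction.

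Promoters of 4 genes that were higher in ionocytes than in each of the other classes are shown first, since Foxi1 is a forkhead factor. Of these genes Atp6v0a4 and Car12 were not confined to ionocytes. Each is a window of 300 bases around the RefSeq transcription start (GRCm38.p6), 5′ to 3′ on the gene's strand, and capitals mark the forkhead letters TGTTTAC, searched on both strands. The Atp6v1g3 window is chr1:138273488-138273787 on the plus strand, that of Atp6v0a4 chr6:38124537-38124836 on the minus strand, that of Atp6v1b1 chr6:83742767-83743066 on the plus strand, and that of Car12 chr9:66713436-66713735 on the plus strand. The RefSeq table held promoters of 30 of the 42 genes. Atp6v0d2 and Atp6v1h had no entry.
Atp6v1g3: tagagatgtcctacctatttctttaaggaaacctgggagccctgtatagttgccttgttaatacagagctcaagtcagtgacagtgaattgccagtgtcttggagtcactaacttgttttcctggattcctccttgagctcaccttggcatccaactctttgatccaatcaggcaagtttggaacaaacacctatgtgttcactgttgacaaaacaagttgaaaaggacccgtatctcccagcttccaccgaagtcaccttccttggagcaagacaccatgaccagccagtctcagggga
Atp6v0a4: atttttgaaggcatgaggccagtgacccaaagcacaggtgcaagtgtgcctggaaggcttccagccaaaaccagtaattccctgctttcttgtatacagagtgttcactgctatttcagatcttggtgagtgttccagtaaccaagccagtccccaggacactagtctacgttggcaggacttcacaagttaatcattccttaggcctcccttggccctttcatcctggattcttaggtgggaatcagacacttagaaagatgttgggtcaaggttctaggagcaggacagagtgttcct
Atp6v1b1: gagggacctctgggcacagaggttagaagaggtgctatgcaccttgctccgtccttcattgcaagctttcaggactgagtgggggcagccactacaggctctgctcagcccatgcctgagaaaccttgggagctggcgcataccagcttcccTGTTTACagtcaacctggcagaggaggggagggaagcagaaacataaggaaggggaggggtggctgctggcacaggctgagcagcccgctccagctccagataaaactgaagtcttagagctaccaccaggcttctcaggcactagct
Car12: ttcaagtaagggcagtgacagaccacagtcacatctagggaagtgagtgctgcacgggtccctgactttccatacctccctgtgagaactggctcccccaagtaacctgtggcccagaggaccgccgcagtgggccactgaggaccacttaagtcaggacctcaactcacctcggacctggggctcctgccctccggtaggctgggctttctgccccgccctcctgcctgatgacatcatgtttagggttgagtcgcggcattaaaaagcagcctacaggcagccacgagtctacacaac
The letters occur once in the Atp6v1b1 window, with their first base at -98 when the start is base 0, and in neither strand of the other 3 windows. Of 32851 promoters of this length in the RefSeq table, 3.65% hold them. Among 12 promoters listed for 10 genes higher in ionocytes than in all 3 classes, 1 holds them. A match is a description of letters and not a binding site. Only these exact letters were searched, so a window without them may still hold other forkhead-like letters.

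Ionocytes carried 3 pump subunits that were near 0 in the 3 compared classes. They also had Atp6v0a4 at a higher level than in those classes, and more of much of the common pump. Of the 30 members that passed the count filter (23 pump genes and 7 anhydrases), 12 were higher in ionocytes than in luminal, basal and seminal vesicle-like cells alike (adjusted p under 0.05 in edgeR's quasi-likelihood test against each). They were 11 pump genes and Car12. Of all 13379 genes tested, 3.90% met that rule in the same direction. No member was lower than all 3 classes, and 1.32% of all genes were.

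Atp6v1g3, the G3 subunit of the pump's stalk (chromosome 1, 138273738 to 138289462), was the most abundant subunit of the V1 sector in ionocytes. Its level was 832 CPM in knockout ionocytes, and 551 and 617 in those of heterozygotes 1 and 2. Luminal cells had 1.28, 0.367 and 4.02 CPM (knockout, heterozygote 1, heterozygote 2), basal cells 0.691, 0.471 and 2.63, and seminal vesicle-like cells 1.77, 6.72 and 7.08. No library overlapped, and the log2 fold change was 8.86 ± 0.50 (SE) against luminal cells, 9.39 ± 0.61 against basal cells and 6.55 ± 0.48 against seminal vesicle-like cells, with edgeR adjusted p-values of 2.7e-09, 1.1e-08 and 2.0e-07. At least 1 UMI of Atp6v1g3 was found in 84.1% of knockout ionocytes and in 85.7% and 93.9% of those of heterozygotes 1 and 2, against 1.19%, 0.367% and 2.24% of luminal cells in the same order of libraries. Ionocytes had a median of 9781, 11080 and 12911 UMIs per cell and luminal cells one of 13128, 9396 and 9250. No T or NK cell of any library had an Atp6v1g3 UMI. Ionocytes held 96.0% of all UMIs of this gene in the kept cells of the knockout, 94.2% in heterozygote 1 and 80.9% in heterozygote 2.

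Atp6v0d2 (chromosome 4, 19876841 to 19922605) encodes the d2 form of the subunit that joins the ring to the central stalk. It reached 107 CPM in knockout ionocytes, and 103 and 117 in those of heterozygotes 1 and 2. The highest value in any library of the other classes was 2.12 CPM, in seminal vesicle-like cells of heterozygote 1. The log2 fold changes were 8.05 ± 0.26, 7.99 ± 0.36 and 6.32 ± 0.29 against luminal, basal and seminal vesicle-like cells.

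Atp6v1b1, the B1 form of the ATP-splitting head (chromosome 6, 83742990 to 83758855), is known for its loss in human renal tubular acidosis with deafness. Its level in ionocytes was 42.8 CPM in the knockout, and 48.9 and 43.9 in heterozygotes 1 and 2. It stayed under 1 CPM in every library of the 3 compared classes, with 0.882 in luminal cells of heterozygote 1 the highest value. Of its UMIs in the kept cells, ionocytes held 89.1% in the knockout, 74.1% in heterozygote 1 and 75.9% in heterozygote 2. The fitted log2 fold changes were 6.46 ± 0.22 against luminal and 6.23 ± 0.28 against seminal vesicle-like cells. Over the 3 libraries 413 UMIs lay in ionocytes and 2 in basal cells, a ratio of levels of 268 with an exact 95% interval of 73.8 to 2223 that covers counting error only.

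Atp6v0a4, the a4 form of the V0 subunit that carries protons through the membrane (chromosome 6, 38048483 to 38124586), was higher in ionocytes but not confined to them. It had 104.9 CPM in knockout ionocytes, and 60.1 and 30.7 in those of heterozygotes 1 and 2. Luminal cells had 14.7, 13.2 and 13.0 CPM in the same order of libraries, basal cells 5.01, 5.19 and 3.58, and seminal vesicle-like cells 3.05, 3.01 and 1.72. The log2 fold changes were 2.40 ± 0.20, 4.06 ± 0.28 and 3.98 ± 0.26 against luminal, basal and seminal vesicle-like cells.

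**Figure D1:**
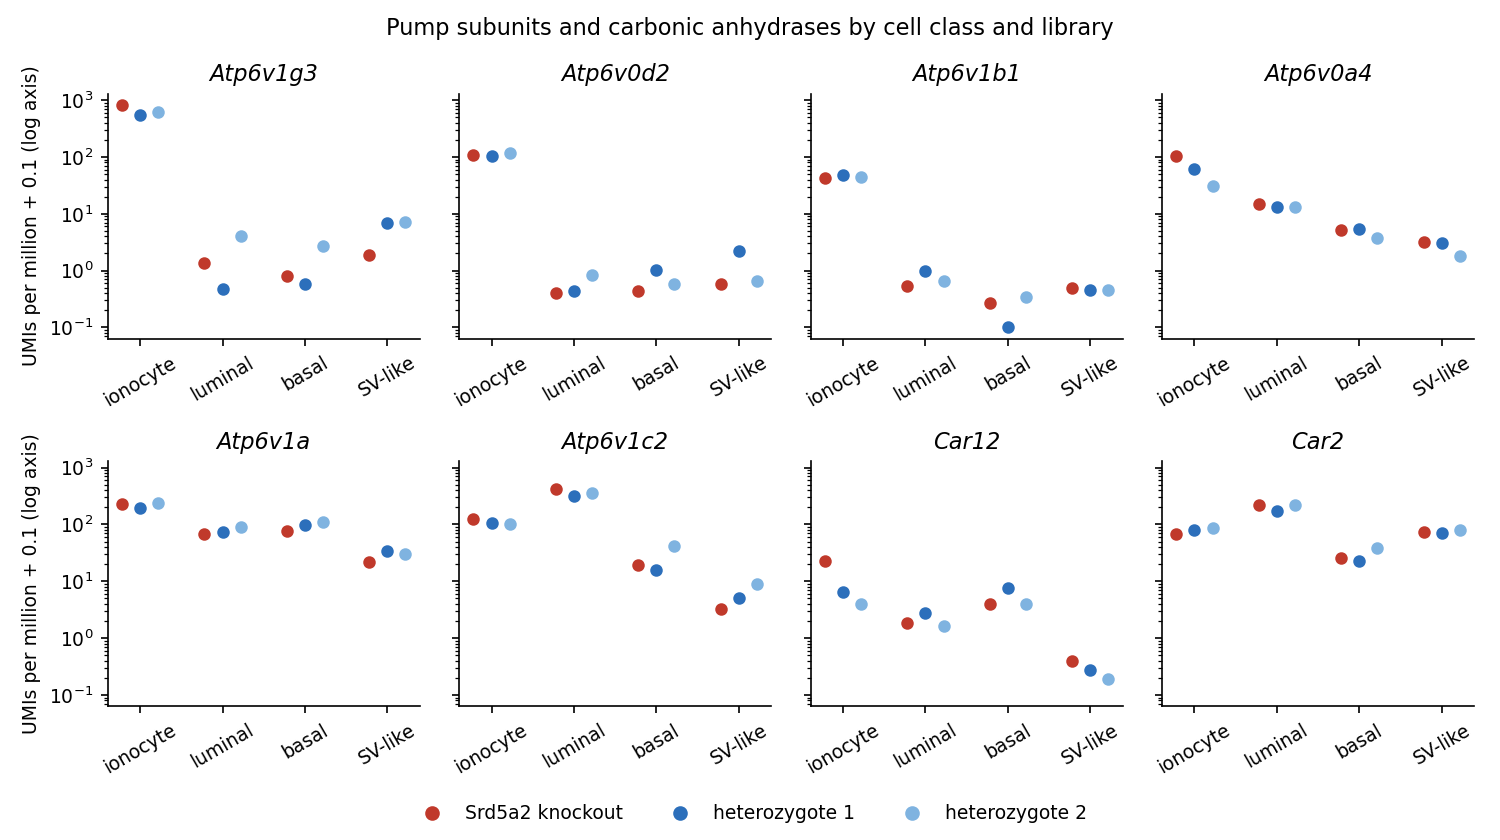
Levels of 6 pump subunits and 2 carbonic anhydrases in ionocytes, luminal, basal and seminal vesicle-like (SV-like) cells, as CPM plus 0.1 on a log axis, with 1 point per library. Atp6v1g3, Atp6v0d2 and Atp6v1b1 stand above 40 CPM in ionocytes and under 10 in every other class, while Atp6v1c2 and Car2 are highest in luminal cells.

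The other 7 pump genes of the group belong to the common pump and differed less. Atp6v1a, the A subunit that splits ATP, had 227 CPM in knockout ionocytes, and 192 and 234 in heterozygotes 1 and 2, with log2 fold changes of 1.78 ± 0.13 against luminal, 1.49 ± 0.13 against basal and 2.29 ± 0.14 against seminal vesicle-like cells. Luminal cells had 68.9, 74.2 and 90.8 CPM of it in the same order of libraries. The ring proteolipids Atp6v0b and Atp6v0c, the e subunit Atp6v0e, the stalk subunit Atp6v1e1, the regulatory subunit Atp6v1h and the accessory protein Atp6ap1 had log2 fold changes between 0.38 (Atp6v1h against luminal cells) and 1.64 (Atp6v0e against basal cells). Beside Atp6v1g3 the most abundant member in ionocytes was Atp6v0c, at 657 CPM in the knockout, and 610 and 480 in heterozygotes 1 and 2. Macrophages, outside the compared classes, had more of it, at 1023, 986 and 1113 CPM. They also had more Atp6v0b, at 366, 351 and 427 CPM, against 311, 293 and 228 in ionocytes. Atp6v0e and Atp6v1e1 were lower in macrophages than in ionocytes in every library, and Atp6v1a, Atp6v1h and Atp6ap1 were higher or lower depending on the library. The call of Atp6v1h against luminal cells was not kept without the knockout (0.21, adjusted p = 0.25) or without heterozygote 1 (0.38, adjusted p = 0.10).

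Against single classes, 13 of 30 members were higher in ionocytes than in luminal cells (all genes: 26.9% higher) and 4 were lower (all genes: 29.1%). Against basal cells 24 were higher (all genes: 30.9%) and 3 lower (30.6%), and against seminal vesicle-like cells 16 were higher (14.6%) and 2 lower (12.6%). DESeq2 gave the same counts of higher and lower members. The lower ones were Car2, Atp6v0e2, Atp6v0d1 and Atp6v1c2 against luminal cells, and Car8, Car9 and Car13 against basal cells. Against seminal vesicle-like cells they were Car2 and Atp6v0a1 (-0.54 ± 0.15, edgeR adjusted p = 0.017). Without any 1 library the count against seminal vesicle-like cells was 1, as Atp6v0a1 no longer passed. Car9 had no UMI in ionocytes. Over the other 29 members tested the median log2 fold change was 0.18, 1.34 and 0.78 against luminal, basal and seminal vesicle-like cells, beside a median of -0.05, 0.01 and -0.02 over all genes. Fold changes use totals scaled by TMM, with factors of 0.982 to 1.06 in ionocytes, 1.22 to 1.27 in luminal, 1.17 to 1.27 in basal and 0.633 to 0.676 in seminal vesicle-like cells, so plain CPM understate seminal vesicle-like levels relative to them.

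**Figure D2:**
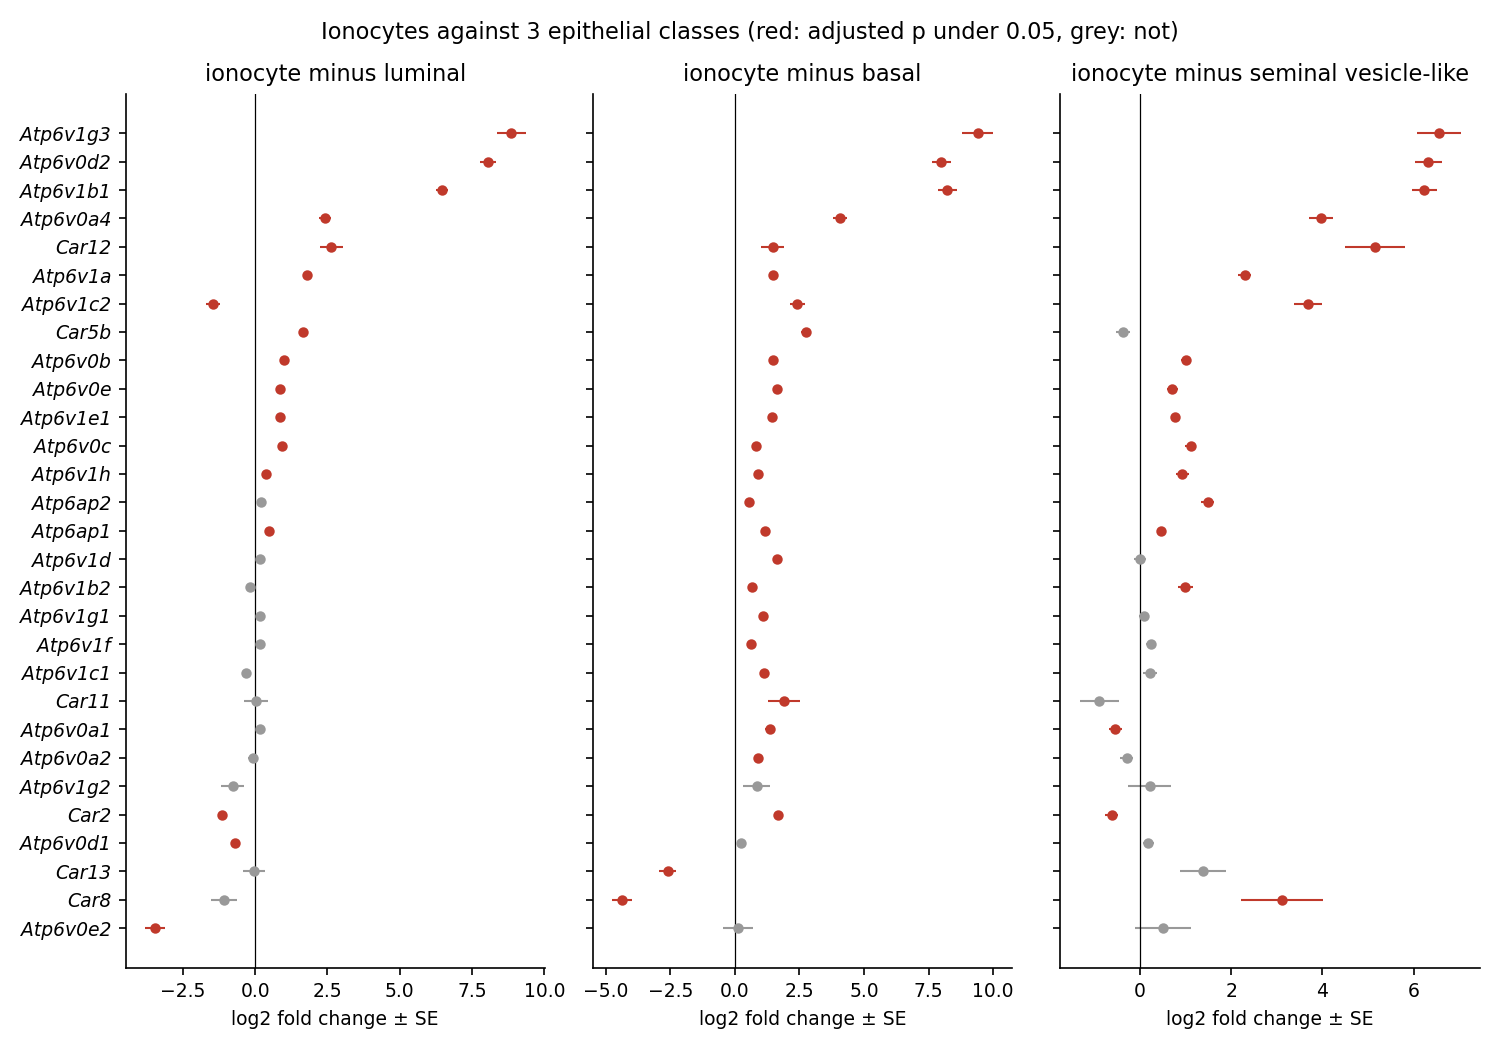
Log2 fold changes ± SE of 29 members, ionocytes minus luminal, basal and seminal vesicle-like cells, from 1 edgeR fit of 12 profiles with library as a block. Car9 is left out, having no UMI in ionocytes. Atp6v1g3, Atp6v0d2 and Atp6v1b1 lie above 6 in all 3 panels, and Atp6v1c2 lies below 0 against luminal cells and above 0 against the other classes.

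Among the genes that fill 1 position, ionocytes used other forms than their neighbours. A share of a position does not depend on the total UMIs of the profile. Atp6v1g3 made up 88.5% of the G subunit UMIs in knockout ionocytes (exact 95% interval 87.4 to 89.5) and 82.7% and 85.1% in those of heterozygotes 1 and 2, against 1.15%, 0.280% and 3.17% in luminal cells. The common form Atp6v1g1 had similar levels in ionocytes, with 107, 111 and 103 CPM, and in luminal cells, with 105, 125 and 116, and the log2 fold change was 0.18 ± 0.10 (adjusted p = 0.15). Atp6v0d2 made up 63.9% of the d subunit UMIs in knockout ionocytes, and 65.9% and 69.1% in those of heterozygotes 1 and 2, while its highest share in a library of the other 3 classes was 5.94%. Its partner Atp6v0d1 was lower in ionocytes than in luminal cells, by a log2 fold change of -0.71 ± 0.11 (adjusted p = 6.6e-05).

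Atp6v1b1 and the common B subunit Atp6v1b2 were about equal in ionocytes, where Atp6v1b1 took 45.0% of their UMIs in the knockout, and 50.6% and 56.0% in heterozygotes 1 and 2. In the other 3 classes its share was at most 2.86%. Atp6v0a4 took 66.8% of the a subunit UMIs (with Tcirg1 counted) in knockout ionocytes (exact interval 62.9 to 70.6), 56.4% in heterozygote 1 (48.8 to 63.7) and 38.0% in heterozygote 2 (32.5 to 43.7). In luminal cells it took 19.1%, 17.2% and 14.2% in the same order of libraries. Atp6v0a1 and Atp6v0a2, which serve intracellular membranes, did not pass against luminal cells (log2 fold changes of 0.17 ± 0.15 and -0.09 ± 0.14).

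The C subunit was different. Atp6v1c2, the C2 form of the regulatory subunit (chromosome 12, 17284721 to 17329359), was the commoner form in ionocytes and in luminal cells alike, with 79.1%, 81.0% and 77.0% of C subunit UMIs in ionocytes (knockout, heterozygote 1, heterozygote 2) and 90.7%, 87.3% and 88.6% in luminal cells. Its level was 125, 106 and 103 CPM in ionocytes, against 421, 319 and 363 in luminal cells, 19.5, 15.6 and 42.0 in basal cells, and 3.15, 4.95 and 8.89 in seminal vesicle-like cells. The log2 fold change was -1.45 ± 0.24 against luminal cells (adjusted p = 0.00014), 2.42 ± 0.28 against basal and 3.68 ± 0.30 against seminal vesicle-like cells. In the shallow ionocytes its level was 368, 383 and 432 CPM in the same order of libraries, and with these alone the fold change against luminal cells was -0.54 and did not pass (adjusted p = 0.065). Atp6v0e2, the second form of the e subunit, was also lower in ionocytes than in luminal cells, at 0.526, 0.589 and 1.05 against 10.5, 8.12 and 10.6 CPM.

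**Figure D3:**
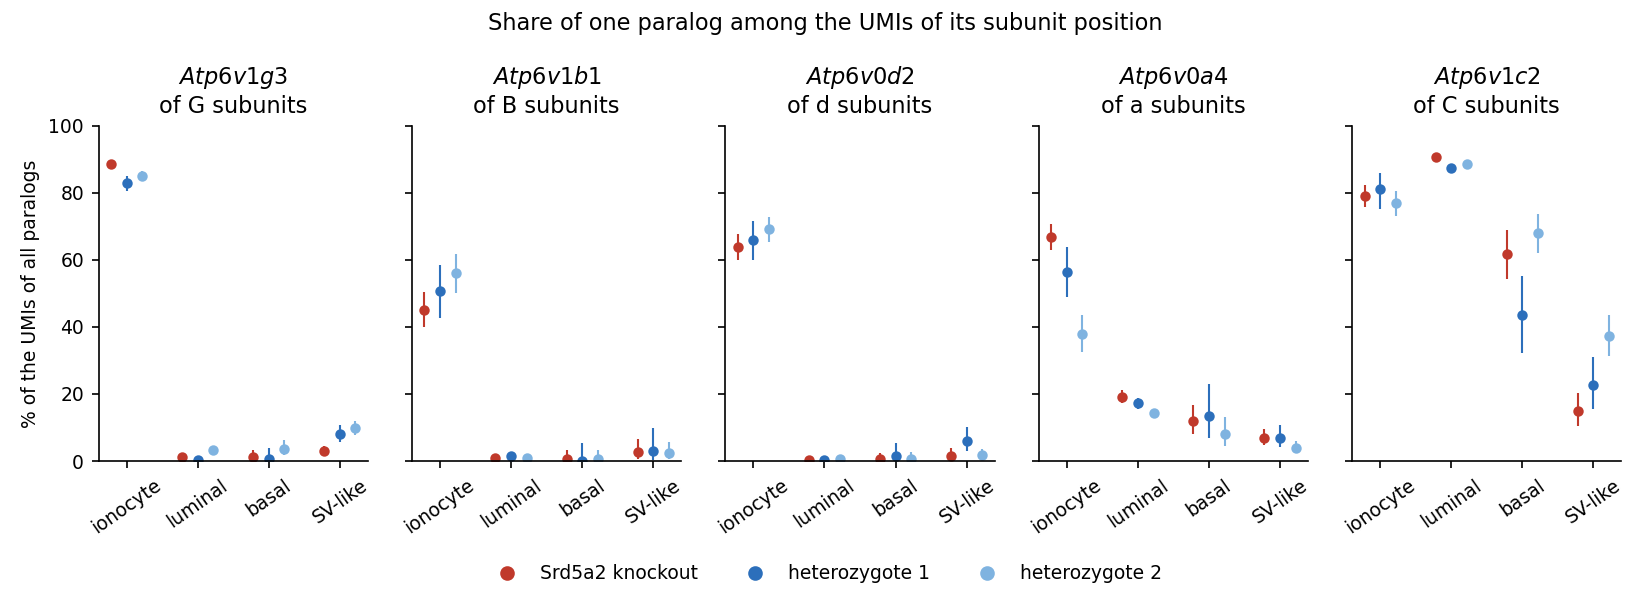
Share of 1 paralog among the UMIs of its subunit position, in percent, by class, with 1 point per library and exact 95% binomial intervals as bars. Atp6v1g3, Atp6v1b1 and Atp6v0d2 hold 45% or more of their position in ionocytes and under 10% elsewhere, while Atp6v1c2 holds most of the C position in luminal cells too.

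The 4 ionocyte subunits were found together in single cells. Of 214 knockout ionocytes 60 had UMIs of all 4 of Atp6v1g3, Atp6v0d2, Atp6v1b1 and Atp6v0a4, and 15 had none. In heterozygote 1 these numbers were 21 and 2 of 105 cells, and in heterozygote 2 they were 34 and 5 of 214 cells. Both subclusters of ionocytes carried the subunits. Atp6v1g3 had 2133, 1908 and 2754 CPM in shallow ionocytes and 524, 347 and 319 in deep ones (knockout, heterozygote 1, heterozygote 2), and its share of the G position was 92.4%, 92.4% and 93.1% in shallow and 85.0%, 76.2% and 77.1% in deep ionocytes. Used alone against the 3 classes, the deep ionocytes kept 10 of the 12 genes, losing Atp6v1h and Car12, and the shallow ones kept all 12 and added Atp6ap2 and Atp6v1f.

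Summed over its 26 genes the pump took 0.394% of the UMIs of knockout ionocytes, and 0.347% and 0.311% of those of heterozygotes 1 and 2. Luminal cells stood at 0.227%, 0.247% and 0.234%, basal cells at 0.128%, 0.158% and 0.153%, and seminal vesicle-like cells at 0.0876%, 0.110% and 0.0899%. Ionocytes were above each of these classes in every library. With seminal vesicle secretory and mitochondrial genes left out of the totals, the ionocytes had 0.651%, 0.631% and 0.591%, the luminal cells 0.243%, 0.259% and 0.252%, and the seminal vesicle-like cells 0.210%, 0.283% and 0.240%. Macrophages, whose lysosomes use the pump, had 0.329%, 0.343% and 0.367%, with no UMI of Atp6v1b1 or Atp6v0d2. Shallow ionocytes alone reached 0.889% in the knockout, and 0.989% and 1.003% in the heterozygotes.

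Carbonic anhydrases did not share 1 pattern, and the main forms were highest in different cell groups. Summed over 16 genes they took 0.0122%, 0.0114% and 0.0118% of ionocyte UMIs, against 0.0246%, 0.0201% and 0.0246% of luminal UMIs (knockout, heterozygote 1, heterozygote 2). With seminal vesicle secretory and mitochondrial genes left out of the totals, the ionocytes had 0.0202%, 0.0208% and 0.0223% and the luminal cells 0.0263%, 0.0210% and 0.0264%. Car2, the fast cytosolic form (chromosome 3, 14886273 to 14900770), was the most abundant anhydrase in ionocytes, luminal and seminal vesicle-like cells. It had 66.8, 79.6 and 84.8 CPM in ionocytes, against 223, 170 and 220 in luminal, 25.4, 22.6 and 38.5 in basal, and 74.7, 72.0 and 78.9 in seminal vesicle-like cells. It was lower in ionocytes than in luminal cells (log2 fold change -1.14 ± 0.14) and seminal vesicle-like cells (-0.62 ± 0.14), and higher than in basal cells (1.68 ± 0.16). The call against seminal vesicle-like cells was not kept with deep ionocytes alone (adjusted p = 0.065).

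Car12, a membrane form with its active site outside the cell (chromosome 9, 66713686 to 66766845), was the anhydrase higher in ionocytes than in all 3 classes. It had 22.3 CPM in knockout ionocytes, and 6.48 and 3.94 in those of heterozygotes 1 and 2. Luminal cells had 1.78, 2.68 and 1.54, basal cells 3.80, 7.54 and 3.82, and seminal vesicle-like cells 0.295, 0.177 and 0.0907, so the ionocytes of the heterozygotes overlapped with basal cells. The log2 fold change was 2.64 ± 0.40 against luminal, 1.46 ± 0.44 against basal and 5.15 ± 0.65 against seminal vesicle-like cells. Without the knockout library the difference from basal cells was 0.24 (adjusted p = 0.66). Within luminal cells Car12 lay in the proximal ones, with 16.0, 20.8 and 10.8 CPM.

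Car5b, a mitochondrial form, was higher in ionocytes than in luminal cells (log2 fold change 1.66 ± 0.15) and basal cells (2.76 ± 0.21), with 19.97, 23.6 and 21.3 CPM. Seminal vesicle-like cells had 17.0, 22.1 and 15.3, and the difference did not pass (-0.37 ± 0.15, adjusted p = 0.092). Car8, Car13 and Car9 were lower in ionocytes than in basal cells.

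Car8, a relative without catalytic activity, had 5.78, 1.18 and 0.263 CPM in ionocytes, against 75.4, 48.1 and 66.4 in basal cells (log2 fold change -4.37 ± 0.39). Its call above seminal vesicle-like cells (3.12 ± 0.89) was not kept without the knockout (0.96, adjusted p = 0.67). Car13, a cytosolic form, had 3.68, 1.18 and 1.84 in ionocytes, against 21.6, 16.5 and 14.3 in basal cells (-2.60 ± 0.34). Car11, a relative without catalytic activity, was higher in ionocytes than in basal cells (1.91 ± 0.62), but had 5, 3 and 12 UMIs in ionocytes (knockout, heterozygote 1, heterozygote 2) and was not called without heterozygote 2 (0.90, adjusted p = 0.31). Car9, a membrane form known as a hypoxia-induced gene, had 0 UMIs in ionocytes and 49, 29 and 30 UMIs in basal cells of the knockout and heterozygotes 1 and 2, at least 27.7-fold lower in ionocytes when their pooled count is taken as 3 UMIs.

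Elsewhere in the tissue, Car14 had 78, 13 and 17 UMIs in smooth muscle (19.1, 14.7 and 13.1 CPM in the knockout and heterozygotes 1 and 2) and no UMI in ionocytes. Car4 and Car7 were found in endothelial cells, with 5, 2 and 3 UMIs of Car4 and 9, 8 and 4 UMIs of Car7. Car6, the secreted form of saliva, had 9.92, 9.74 and 21.8 CPM in proximal luminal cells. Car13 was highest in the cluster led by Tmem171 and Clca3a2, at 49.7, 83.3 and 90.8 CPM, a cluster that held markers of both proximal luminal and basal cells and was left unnamed. Macrophages had 31.5, 28.4 and 50.9 CPM of it, from 16, 3 and 13 UMIs. Car1, Car3, Car5a, Car10 and Car15 had at most 2 CPM in any library of the 4 classes. Together with Car4, Car6, Car7, Car14, Atp6v1e2, Atp6v1fnb and Atp6ap1l, they were the 12 members under the count filter, and Atp6v1e2 had no UMI in these classes.

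**Figure D4:**
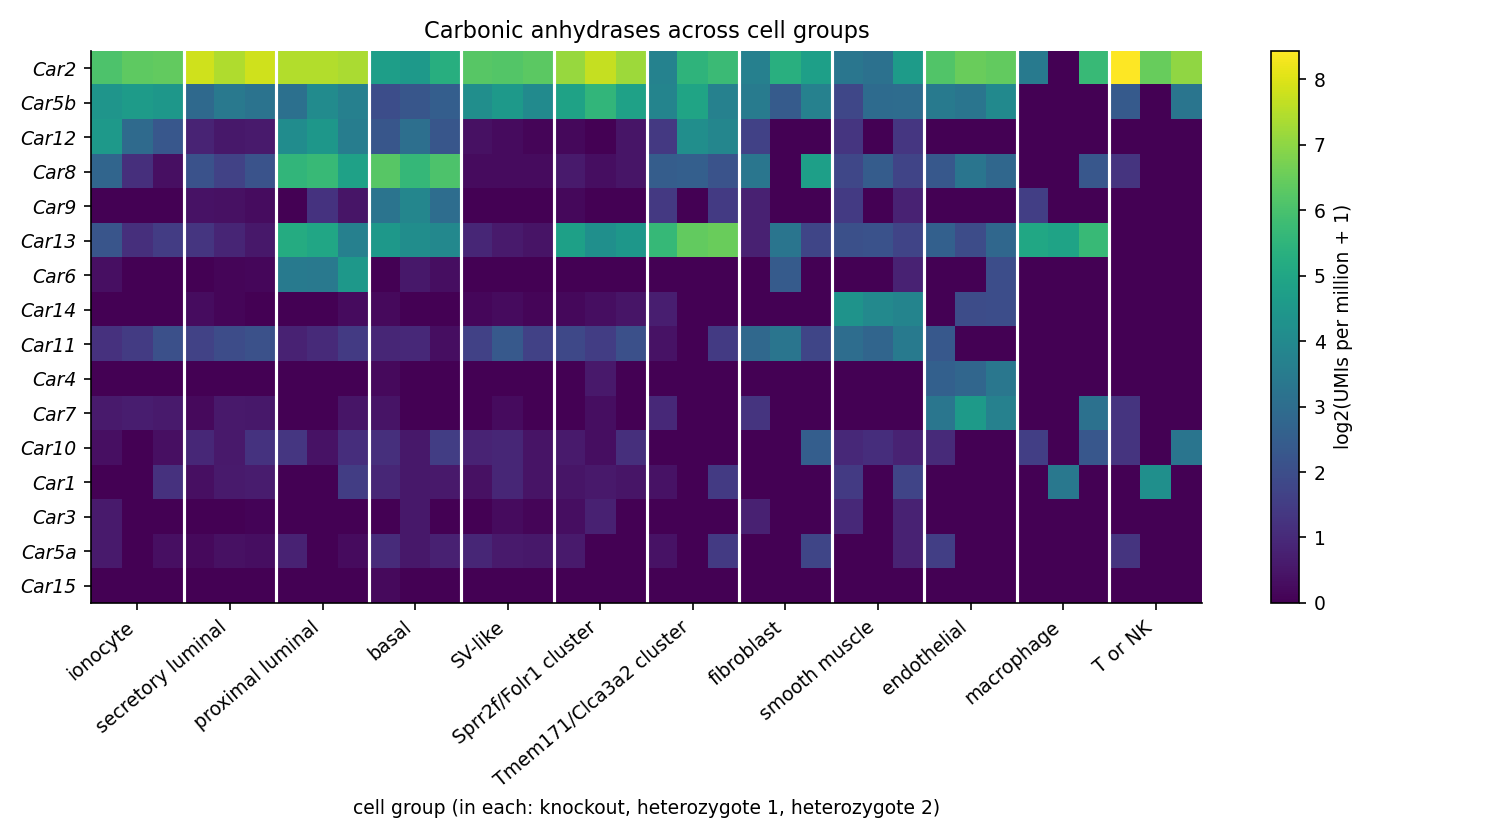
Levels of the 16 carbonic anhydrases in 12 cell groups, as log2 of CPM plus 1, with 3 columns per group for the knockout, heterozygote 1 and heterozygote 2. Car2 is high in secretory and proximal luminal cells, Car8 and Car9 in basal cells, Car13 in the Tmem171/Clca3a2 cluster, macrophages and basal cells, Car14 in smooth muscle and Car12 in ionocytes and proximal luminal cells. Car2 in knockout T or NK cells rests on 246 UMIs.

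The pump works with transporters that move chloride and bicarbonate. Of 45 tested genes on a list of such partners and assembly factors, 5 were higher in ionocytes than in all 3 classes and none was lower, beside the 3.90% of all genes. Clcn5, a chloride and proton exchanger of endosomes, had 421, 368 and 468 CPM in ionocytes, against at most 18.6 in any library of the 3 compared classes. Its log2 fold changes were 5.15, 5.11 and 5.12 against luminal, basal and seminal vesicle-like cells. Slc26a3, an exchanger of chloride for bicarbonate, had 26.8, 26.5 and 30.5 CPM in ionocytes, against 9.52, 15.9 and 17.4 in luminal cells. Slc9a4, a sodium and proton exchanger, Slc4a5, a bicarbonate cotransporter, and Dmxl1, of the complex that helps to assemble the pump, completed the group. Against luminal cells 12 of the 45 were higher and 14 lower (all genes: 26.9% and 29.1%), against basal cells 16 and 11 (30.9% and 30.6%), and against seminal vesicle-like cells 9 and 4 (14.6% and 12.6%). On a list of 31 lysosomal genes 3 met the rule for all 3 classes, among them Ctsd, which encodes a lysosomal protease, and Cln3, which encodes a lysosomal membrane protein. Against luminal cells 11 of the 31 were higher and 8 lower (all genes: 26.9% and 29.1%), against basal cells 19 and 3 (30.9% and 30.6%), and against seminal vesicle-like cells 10 and 4 (14.6% and 12.6%). The difference between these lists and the pump genes was not tested.

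The genotype label was compared within each class, with the 1 knockout library set against the 2 heterozygote libraries. This fit has 1 residual degree of freedom and takes the lone knockout library to vary like the heterozygotes, and an exact permutation test of 1 against 2 could not go below p = 0.33. In ionocytes 2 of 28 members tested were higher in the knockout (all genes: 0.683%) and none was lower (all genes: 0.803%). They were Atp6v0a4 and Car12. DESeq2 called neither of them. By edgeR 4 members had an unadjusted p under 0.05, and by DESeq2 2 had. No gene of the partner or lysosomal list passed.

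Atp6v0a4 had 399 UMIs in knockout ionocytes, against 102 and 117 in those of heterozygotes 1 and 2. The knockout lay above both heterozygotes, which also lay apart from each other. The log2 fold change was 1.16 ± 0.28 (edgeR adjusted p = 0.010), or 0.70 against heterozygote 1 alone and 1.63 against heterozygote 2 alone. It was 1.27 in shallow ionocytes (adjusted p = 0.014) and 0.84 in deep ones (adjusted p = 0.50). Its share of the a position was 82.5%, 72.2% and 66.2% in shallow ionocytes (knockout, heterozygote 1, heterozygote 2). With seminal vesicle secretory and mitochondrial genes left out the difference was 1.16 and did not pass (adjusted p = 0.10). A UMI was present in 61.7% of knockout ionocytes, and in 53.3% and 33.6% of those of heterozygotes 1 and 2, beside 17.0%, 12.5% and 11.4% of luminal cells in the same order of libraries. Exons of Atp6v0a4 overlap on the opposite strand with Tmem213 and on the same strand with D630045J12Rik. Reads there could be shared, and their part in the result cannot be told apart. D630045J12Rik, looked up after the result was seen, had 47 UMIs in knockout ionocytes, against 10 and 57 in heterozygotes 1 and 2. Its log2 fold change was -0.01. Tmem213 itself had 34 UMIs in knockout ionocytes, against 1 and 3 in heterozygotes 1 and 2, a log2 fold change of 3.44 (edgeR adjusted p = 0.0045), and it was looked up for this overlap after the result was seen.

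Car12 had 85 UMIs in 50 of 214 knockout ionocytes, against 11 UMIs in 9 of 105 cells of heterozygote 1 and 15 UMIs in 14 of 214 cells of heterozygote 2. The most in any 1 cell was 4 UMIs in the knockout, so no single cell carried the difference. The log2 fold change was 2.09 ± 0.39 (edgeR adjusted p = 0.00030), or 1.60 against heterozygote 1 alone and 2.21 against heterozygote 2 alone. It was 2.56 in deep ionocytes (adjusted p = 0.0070) and 1.42 in shallow ones (adjusted p = 0.12). DESeq2 gave a log2 fold change of 2.05 with an adjusted p of 1.00, and 1.13 with 1.00 for Atp6v0a4.

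The subunits that set ionocytes apart did not otherwise pass between the labels in ionocytes. Atp6v1g3 differed by 0.40 ± 0.30 (adjusted p = 0.91), Atp6v0d2 by -0.15 ± 0.27 and Atp6v1b1 by -0.22 ± 0.28. Over the 28 members the median log2 fold change was 0.08, beside -0.02 over all genes. In luminal cells 0 of 35 members passed (all genes: 0.700% higher, 1.07% lower), with 1 at an unadjusted p under 0.05, and in basal cells 0 of 25 (all genes: 1.01% higher, 1.34% lower), with 2 such. DESeq2 called none in either class, and none had an unadjusted p under 0.05 there.

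In seminal vesicle-like cells 1 of 24 members was lower in the knockout (all genes: 1.42%) and none higher (0.872%). It was Atp6v1g3, with 18 UMIs in 6 of 487 knockout cells, against 38 UMIs in 10 of 307 cells of heterozygote 1 and 78 UMIs in 23 of 487 cells of heterozygote 2. The log2 fold change was -2.01 ± 0.45 (edgeR adjusted p = 0.00080), and DESeq2 did not call it (adjusted p = 0.54). A few cells held these UMIs, since 1 knockout cell had 12 of the 18, 1 cell of heterozygote 1 had 11 of the 38, and 1 cell of heterozygote 2 had 20 of the 78.

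**Figure D5:**
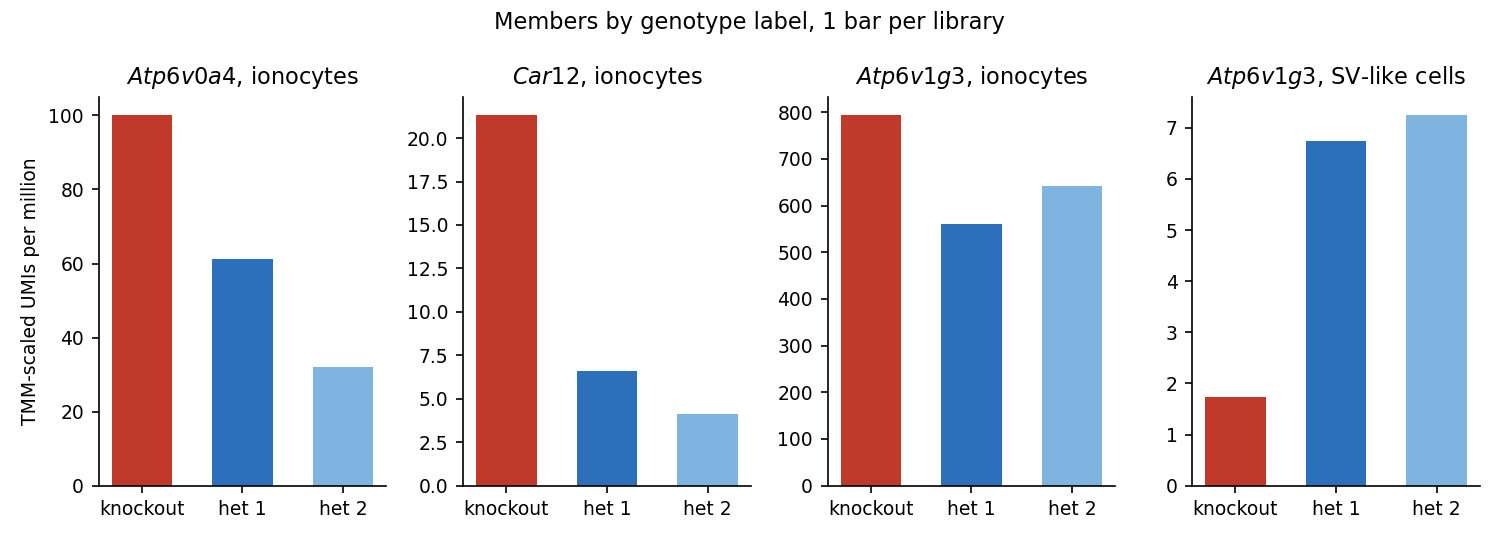
TMM-scaled CPM of Atp6v0a4, Car12 and Atp6v1g3 in ionocytes and of Atp6v1g3 in seminal vesicle-like cells, with 1 bar per library. Atp6v0a4 and Car12 are highest in the knockout, while Atp6v1g3 in seminal vesicle-like cells is lowest there.

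Whether the genotype effect differed between ionocytes and another class was tested as an interaction. Against luminal cells 0 of 32 members passed in edgeR (all genes: 0.394% higher, 0.164% lower), with 5 at an unadjusted p under 0.05, and DESeq2 called none, with 2 such. There the effect on Car12 was larger in ionocytes by 2.21 ± 0.56 (adjusted p = 0.066) and that on Atp6v0a4 by 1.02 ± 0.28 (adjusted p = 0.11). Against basal cells 2 of 29 were higher (all genes: 0.470%) and none lower (0.284%), Car12 by 2.46 ± 0.57 (adjusted p = 0.0051) and Car8 by 2.83 ± 0.77 (adjusted p = 0.039). Car8 in ionocytes rested on 22 UMIs in 3 knockout cells, 15 of them in 1 cell, against 2 UMIs and 1 UMI in heterozygotes 1 and 2. Against seminal vesicle-like cells 2 of 28 were higher (all genes: 0.612%) and none lower (0.105%), Atp6v1g3 by 2.39 ± 0.30 (adjusted p = 7.1e-07) and Atp6v1c2 by 1.41 ± 0.33 (adjusted p = 0.022). Atp6v1c2 in seminal vesicle-like cells rested on 32 UMIs in the knockout, and 28 and 98 in heterozygotes 1 and 2. The effect on Atp6v0a4 was larger in ionocytes by 0.92 than in basal cells (adjusted p = 0.74) and by 0.81 than in seminal vesicle-like cells (adjusted p = 0.75), and neither passed. With DESeq2 Atp6v1g3 alone was called.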

How the data were processed

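Each library was deposited as a matrix of raw UMI counts per gene and barcode, and the submitters' processing notes name Cell Ranger 3.1.0 and the mm10 build. Whether counting used strand, and how many animals made a library, is not given in the sources used here. The genes, gene lists and tests were chosen with earlier results of these data known. Cells had to show 500 genes or more, with no more than 15% of UMIs from mitochondrial genes. Scrublet's automatic threshold called under 0.5% of cells, so the score cutoff was set at an expected 0.8% per 1000 cells (7.99%, 3.77% and 8.47% in the knockout and heterozygotes 1 and 2), and 844, 213 and 925 barcodes at or above it, ties included, were removed as doublets. Cells of all libraries were clustered together on 2000 variable genes, 30 components, 15 neighbors and Leiden resolution 1 (scanpy 1.11.5, igraph 0.11.9), leaving out the 42 genes, the partner list and genes abundant in free RNA. A cluster was named when at least 3 markers were detected, and 2 clusters with markers of several classes stayed unnamed. A UMI is a molecule count, and intervals cover counting error only.

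UMIs were summed per library and class. The class fit took 12 profiles with library as a block, and genotype fits took 3 profiles of 1 class (edgeR 4.0.16, filterByExpr, TMM, quasi-likelihood test, Benjamini-Hochberg over all genes tested). Interactions took 6 profiles of 2 classes. DESeq2 1.42.0 was an alternative. Levels in the text use plain totals and fold changes use TMM totals. A profile of the 4 classes held 1696610 to 52453612 UMIs. By rule, values per library are given for genes that passed against all 3 classes, their paralogs, genes called by genotype and the highest at each position. Shares carry exact Clopper-Pearson 95% intervals. Coordinates are from GENCODE M21, which matched all 42 genes. Fits were tested on simulated data with the same spread for every gene and library, no library effect, and genes of few UMIs left out. Such data cannot test whether the lone knockout library varies like the heterozygotes. Protein sequences were not used here. Some genes of the lists are not reported here by name.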

Additional observations from a re-analysis of the deposited data

Results flagged for a closer look

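The effect of the genotype label differed between ionocytes and another class for 4 genes by the interaction test (edgeR, adjusted p under 0.05). Car8 had an effect larger by 2.83 in ionocytes than in basal cells, and 15 of its 22 UMIs in knockout ionocytes lay in 1 cell. Car12 had an effect larger by 2.46 than in basal cells, with the knockout above both heterozygotes in ionocytes. Atp6v1g3 had an effect larger by 2.39 than in seminal vesicle-like cells, where it was found in 6 of 487 knockout cells, against 10 of 307 and 23 of 487 cells of heterozygotes 1 and 2. Atp6v1c2 had an effect larger by 1.41 than in seminal vesicle-like cells, where its level was 3.15 CPM in the knockout and 4.95 and 8.89 in heterozygotes 1 and 2. These levels rested on 32, 28 and 98 UMIs, and 9 of the 28 lay in 1 cell of heterozygote 1. DESeq2 called Atp6v1g3 alone of the 4. No genotype had the 4 libraries needed to look for an outlying one.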

How the results depend on the processing

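The genes higher in ionocytes than in all 3 classes numbered 12, and 10 to 14 under 17 other settings. Apart from the 14 with shallow ionocytes alone, no setting added a gene. Atp6v1h was lost with no filter on low counts, without the knockout, without heterozygote 1, with all seminal vesicle-like clusters, with secretory luminal cells alone and with deep ionocytes alone, where its difference from luminal cells turned to -0.067. Car12 was lost without the knockout, with free RNA subtracted and with deep ionocytes alone, and Atp6ap1 with no replicate block (11 genes left). Over single members, 1049 of 1085 values kept direction and side of the threshold, 33 lost the threshold and 3 turned, the other 2 being Car11 against basal cells with shallow ionocytes alone (-0.43) and Car8 against seminal vesicle-like cells with deep ionocytes alone (-0.96).

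Members lower in ionocytes than in luminal cells numbered 8 with no filter in place of 4. Those lower than in seminal vesicle-like cells, 2 in number, became 1 with no replicate block and with all seminal vesicle-like clusters, 1 without each library in turn, 4 with the unnamed clusters added, 0 with deep and 4 with shallow ionocytes alone. Members higher in knockout ionocytes, 2 in number, became 0 with DESeq2 and 1 with deep ionocytes, with shallow ionocytes, or with seminal vesicle secretory and mitochondrial genes left out. In seminal vesicle-like cells the 1 lower call became 0 with DESeq2, 2 at resolution 2 or with doublets kept and 5 with all clusters, and 1 was higher with all clusters or with the unnamed ones added. With DESeq2 the interaction calls became 0 against basal and 1 against seminal vesicle-like cells. Shares of all genes called under these other settings are not given here, so the counts of this section describe the calls alone. No paired analysis was possible for the genotype label because 1 knockout library shares a number with 1 heterozygote only.

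Free RNA could be subtracted only from luminal and basal cells, with the profile of heterozygote 2 used for heterozygote 1. The settings with ionocyte subclusters, unnamed clusters and genes left out were chosen after seeing the data. Thinned to 1000 UMIs, Atp6v1g3 was found in 107 of 214 knockout ionocytes, 53 of 105 of heterozygote 1 and 118 of 213 of heterozygote 2, and Car12 in 5.61%, 2.86% and 0.939%, so the shares given depend on depth.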

Other observations

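Pump genes were also prominent outside the compared classes. In the 21 neuroendocrine-like cells, found in the heterozygotes only, the 26 pump genes took 0.505% of UMIs in heterozygote 1 and 0.663% in heterozygote 2. Car2 in T or NK cells had 246 UMIs in the knockout, against 5 and 15 UMIs in heterozygotes 1 and 2, or 345, 87.8 and 131 CPM. Car6 had 97 UMIs in the seminal vesicle-like clusters that were left out of the fits in heterozygote 2, where 1 cluster of 241 cells led by Smr2, Prol1 and Odam held 236 cells of that library. In secretory luminal cells Car2 had 226, 170 and 226 CPM, and in proximal ones 175, 173 and 163 (knockout, heterozygote 1, heterozygote 2).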
